A study of Mus musculus with 6 samples.

Results

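Well known target genes of the tumour suppressor p53 were examined in natural killer (NK) cells with and without the genes of microRNA-15a and microRNA-16-1. Of the 10 genes of the p53 pathway chosen for this, 8 had a probe set on the array that was annotated to that gene alone, with 1 probe set each, among 19938 genes measured in all. They were Mdm2, Ccng1, Sesn2, Phlda3, Trp53inp1, Bbc3, Aen and Zmat3. The probe set for Cdkn1a, which encodes the cell cycle inhibitor p21, was annotated to a further gene on another chromosome (4930567H12Rik) and was kept out of all counts.

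The cells came from spleens of C57Bl/6 mice aged 8 to 12 weeks and were sorted without culture as YFP+, CD27+, NK1.1+ and CD3-. CD27 marks the less mature NK cells. The study compared 3 arrays labelled 15a/16-1FKO (the knockout) with 3 arrays labelled Ctrl, 1 Affymetrix array per sample. Both groups were sorted on YFP, and the labels do not say what drives the deletion or YFP. Since the series describes the 3 arrays of each genotype as technical replicates, every p-value reflects the spread between these arrays alone. The levels of sex-linked transcripts, given with the other checks, differed within a genotype in a way that repeated arrays of 1 RNA would not.

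In healthy cells p53 is made continuously and degraded by the ubiquitin ligase MDM2. DNA damage and other stresses stabilise p53, which then binds DNA and switches on genes for cell cycle arrest, repair, metabolic restraint and death, together with Mdm2 itself, which closes a feedback loop. The microRNA-15/16 family is linked to this pathway in both directions in other cells. p53 promotes the processing of microRNA-16, and the transcript of the phosphatase PPM1D, which switches the response off, has been described as a target of the family. The comparison asked how transcripts of CD27+ NK cells differ once this microRNA pair is deleted.

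The microRNAs encoded at the deleted locus are shown because they define the genotype. Their mature 5p arms (RefSeq, GRCm38.p6, minus strand) lie at chr14:61632075-61632096 for miR-15a-5p and chr14:61631936-61631957 for miR-16-5p. Capitals mark the seed, bases 2 to 8, which pairs with target transcripts and is the same in both. Levels of the mature microRNAs, and any supply from other loci, were not analysed here.
mmu-miR-15a-5p: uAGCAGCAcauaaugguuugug
mmu-miR-16-5p: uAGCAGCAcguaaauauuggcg

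Promoter windows were searched for the sequence that p53 is known to bind. p53 binds DNA at pairs of a decamer known as the p53 half-site. RefSeq promoter windows (GRCm38.p6, 250 bases before to 50 bases after a start site) were searched for 7 genes, namely Cdkn1a and the measured members other than Trp53inp1 and Zmat3. An exact match to the half-site consensus, which reads the same on both strands, was present in the windows of 4 of these 7 genes (57.1%), while 9.55% of the 27025 genes with a window held one. The windows of Phlda3, Sesn2 and Bbc3 held none. Half-sites with a mismatch, or outside the windows, were not searched for, so an absent match does not mean that a gene lacks a site. A pair of exact half-sites no more than 13 bases apart was present in 1 of the 7, Cdkn1a, and in 0.074% of all genes. In Cdkn1a, 12 bases lay between the exact matches. The 10 bases directly after the second of them, printed in its flank, differ from the consensus at their first base alone and were not counted. The matches are shown with their flanks, on the strand of the gene and with the half-site in capitals, because they are what the search found.
Cdkn1a, chr17:29090896-29090925, plus strand: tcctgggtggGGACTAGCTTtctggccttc
Cdkn1a, chr17:29090918-29090947, plus strand: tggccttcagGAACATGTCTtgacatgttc
Mdm2, chr10:117710925-117710954, minus strand: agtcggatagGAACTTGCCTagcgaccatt
Ccng1, chr11:40755452-40755481, minus strand: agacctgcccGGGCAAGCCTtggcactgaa
Aen, chr7:78895927-78895956, plus strand: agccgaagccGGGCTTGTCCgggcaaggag
The Aen match begins at base 11 of the transcript from one start site and 121 bases before the other, while the remaining 4 matches all begin before the start site. A match describes these letters only, and binding was not measured.

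The genotype and cell type labels were checked first. The Mir15a probe set was at 4.37, 3.53 and 3.43 in the 3 knockout arrays and at 7.14, 6.02 and 6.69 in the Ctrl arrays on the log2 scale, without overlap. The Mir16-1 probe set was at 2.61, 2.68 and 3.00 in knockout arrays and at 3.19, 3.20 and 3.77 in Ctrl arrays, also without overlap. These values all lay under the background guide given next, and the log2 difference was -0.63 (limma adjusted p = 0.999). All 8 NK markers fixed for this check, Ncr1 and Klrb1c among them, lay above 4.13, the log2 level under which 95% of 1027 olfactory receptor genes lay and which served as a guide to background. So did 4 of 8 T cell, 2 of 5 B cell, 5 of 9 myeloid and 2 of 3 erythroid and platelet markers, beside 54.6% of all genes. Past the threshold were 0 markers of any of these lists (limma, lowest adjusted p = 0.999). The myeloid marker S100a8 was at 8.09, 7.35 and 8.08 in knockout arrays and at 7.29, 7.61 and 6.30 in Ctrl arrays, a log2 difference of 0.77 (SE 0.32, unadjusted p = 0.0407, adjusted p = 0.999 by limma). It was the 1 marker of these lists with an unadjusted p under 0.05. The 9 myeloid markers held 6 higher and 3 lower in the knockout, with a median log2 difference of 0.03. Of the 5 B cell markers, 3 were higher and 2 lower in the knockout, and the middle difference was 0.0024. The outermost of these 5 was Cd79a, at -0.62 (SE 0.47), while the highest was at 0.14. The differences of S100a8 and Cd79a were larger in size than that of any p53 pathway gene described here. The part of such cells in the results was not tested. The mean log2 level of the myeloid list was 4.93 to 5.17 in knockout arrays and 4.78 to 5.19 in Ctrl arrays. Transcripts that depend on sex differed within genotypes. Xist was at 7.56, 8.58 and 8.84 in knockout replicates 1 to 3 and at 9.65, 3.89 and 8.86 in Ctrl replicates 1 to 3. The mean of the Y-linked Eif2s3y, Kdm5d and Uty was 6.90, 5.47 and 4.80 in the knockout arrays and 2.93, 6.75 and 5.21 in the Ctrl arrays. Thus Ctrl replicate 1 had Xist alone above the olfactory receptor level, Ctrl replicate 2 the Y-linked mean alone, and the other 4 arrays both. The part of sex in the results was not tested beyond a fit with these transcripts as a covariate, which called 0 members.

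None of the 8 measured members passed the threshold between the genotypes. Across all genes tested, 0.0201% were called (4 of 19938, limma, Benjamini-Hochberg adjusted p under 0.05), with 0.015% higher (3 genes) and 0.00502% lower (1 gene) in the knockout. At an unadjusted p under 0.05, 0 of 8 members were found, where 3.47% of all genes were, 1.55% higher and 1.91% lower. Among the members 6 had a positive and 2 a negative difference, knockout minus Ctrl. Positive differences made up 47.9% over all genes and 51.0% over the genes above the olfactory receptor level. Their median log2 difference was 0.05, beside -0.01 over all genes, and the single differences ran from -0.02 (Aen) to 0.22 (Ccng1). The adjusted p of each member was 0.999 (limma). The 95% intervals of the 8 members together spanned -0.54 to 0.55, so that each interval left out a doubling and a halving of the transcript on the array's scale. Near background, RMA values understate a fold change, which bears on Phlda3, Sesn2, Zmat3, Aen and Bbc3, with means of 4.08 to 4.81. In bulk RNA, fewer cells that carry a transcript and less of it per cell cannot be told apart.

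**Figure D1:**
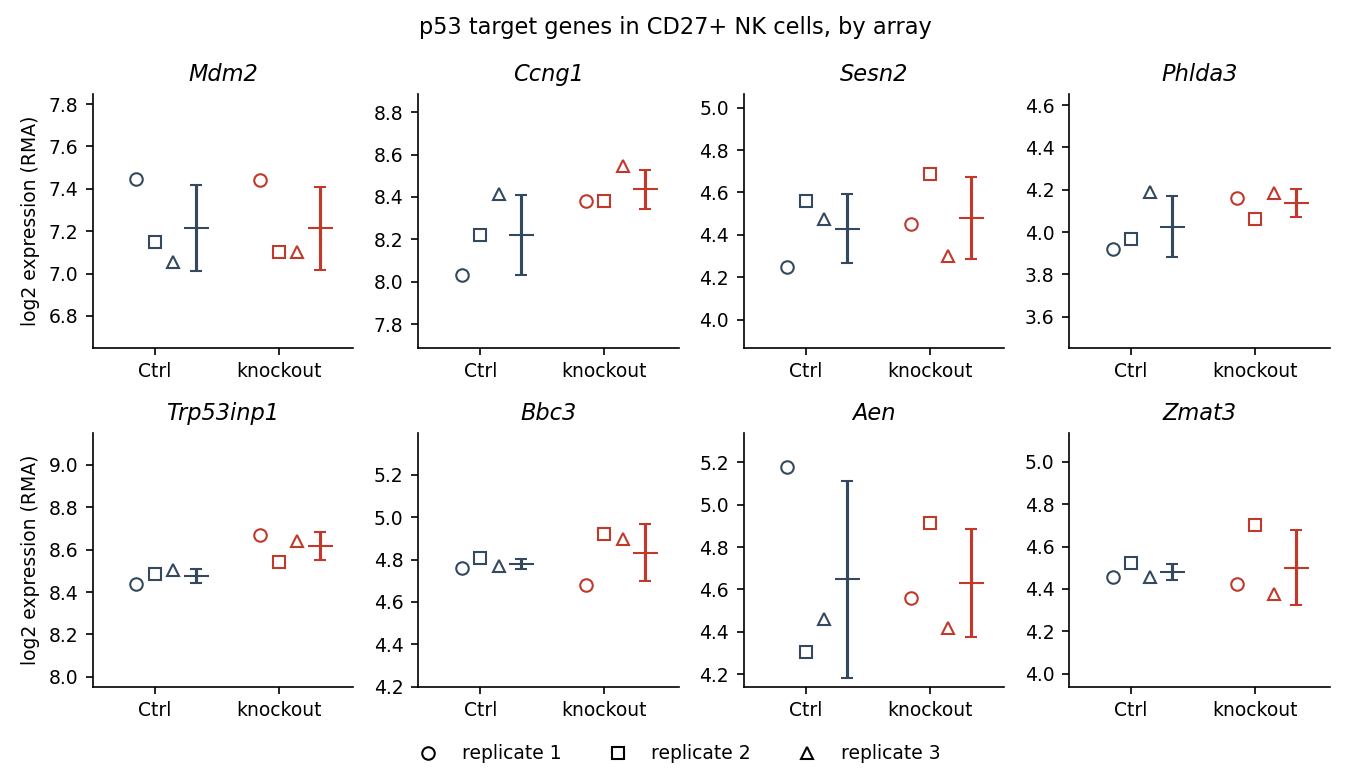
Log2 expression (RMA) of the 8 measured p53 target genes in each array, Ctrl in dark blue and knockout in red, with symbols for replicates 1 to 3 and, beside them, the mean with its SD (n = 3 arrays). Every panel spans the same range on the log2 axis. Trp53inp1 is the only gene whose knockout arrays (8.54 to 8.67) all lie above its Ctrl arrays (8.44 to 8.50).

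Mdm2, the ubiquitin ligase that degrades p53 and is itself induced by it, had nearly the same mean in both genotypes. It was at 7.44, 7.10 and 7.10 in knockout replicates 1 to 3 and at 7.45, 7.15 and 7.05 in Ctrl replicates 1 to 3. Replicate 1 was the high array in each genotype, and the groups overlapped throughout. The means were 7.21 ± 0.20 and 7.22 ± 0.20 (SD, n = 3 arrays each), with a log2 difference of 0.00 (95% interval -0.37 to 0.37). This was smaller in size than the difference of all but 0.727% of genes.

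The cell cycle and growth regulators among the members overlapped between genotypes. Ccng1 encodes cyclin G1, which recruits a phosphatase to MDM2. Its knockout arrays were at 8.38, 8.38 and 8.54 and its Ctrl arrays at 8.03, 8.22 and 8.41. One Ctrl array, replicate 3, lay above 2 knockout arrays, so the groups overlapped. The log2 difference of 0.22 (SE 0.15, 95% interval -0.12 to 0.55) was the largest among the members, and 90.3% of all genes had a lower one.

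Sesn2 encodes sestrin 2, a leucine sensor that restrains the growth kinase complex mTORC1. Its level was 4.45, 4.69 and 4.30 in knockout arrays and 4.25, 4.56 and 4.48 in Ctrl arrays. Replicate 2 was the high array in each genotype and the groups overlapped, with a log2 difference of 0.05 (SE 0.16). Phlda3, whose product competes with AKT for the membrane, was at 4.16, 4.06 and 4.18 in knockout arrays and at 3.92, 3.97 and 4.19 in Ctrl arrays. Its highest value was that of Ctrl replicate 3, so the groups overlapped, and the log2 difference was 0.11 (SE 0.14). With a mean of 4.08 over the 6 arrays it was the only member under the olfactory receptor level.

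Among the members linked to cell death, Trp53inp1 was higher in all 3 knockout arrays. It encodes a stress protein that takes part in autophagy and in p53 phosphorylation. The knockout arrays were at 8.67, 8.54 and 8.64 and the Ctrl arrays at 8.44, 8.49 and 8.50, with means of 8.62 ± 0.06 and 8.48 ± 0.03 (SD, n = 3 each). The lowest knockout array and the highest Ctrl array thus lay close together. The log2 difference was 0.14 (SE 0.13, 95% interval -0.15 to 0.43, limma adjusted p = 0.999), and an exact two-sided permutation test gave p = 0.1, the smallest that 3 against 3 arrays allow. Trp53inp1 was 1 of 8 members higher without overlap, while 3.68% of all genes were higher in this way and 8.33% had no overlap in either direction. Its arrays varied little within a genotype, with a pooled SD of 0.05, and 1.16% of genes had a smaller one. Limma shrinks variances toward a common value, so the SE was wider than the spread of this gene alone would give.

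Bbc3 encodes PUMA, a BH3-only protein that starts mitochondrial apoptosis. It was at 4.68, 4.92 and 4.90 in knockout arrays and at 4.76, 4.81 and 4.77 in Ctrl arrays. Knockout replicate 1 was the lowest of all 6 and the other knockout arrays the highest, with a log2 difference of 0.05 (SE 0.13), or 0.13 without knockout replicate 1. Aen, a nuclease that promotes apoptosis, was at 4.56, 4.91 and 4.42 in knockout arrays and at 5.18, 4.30 and 4.46 in Ctrl arrays. The Ctrl arrays alone held both the highest and the lowest value, 0.88 apart. The pooled SD of Aen within a genotype was 0.38, above that of 91.4% of genes, and its log2 difference was -0.02 (SE 0.23). Without Ctrl replicate 1 the difference of Aen was 0.25.

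Zmat3 encodes a zinc finger protein that binds RNA. It was at 4.42, 4.70 and 4.37 in knockout arrays and at 4.46, 4.52 and 4.46 in Ctrl arrays. Knockout replicate 2 was the highest array and knockout replicate 3 the lowest, with the Ctrl arrays between them. The log2 difference was 0.02 (SE 0.14).

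The probe set shared by Cdkn1a and 4930567H12Rik was dim in all arrays. It was at 3.47, 3.64 and 3.67 in knockout arrays and at 3.63, 3.64 and 3.50 in Ctrl arrays, all under the olfactory receptor level. The log2 difference was 0.00 (95% interval -0.30 to 0.30, limma over all 35556 probe sets). Its signal cannot be assigned to either gene.

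The differences can be set beside the promoter matches shown above. Of the 6 measured members with a window, 3 held a match, with log2 differences of 0.00 (Mdm2), 0.22 (Ccng1) and -0.02 (Aen). The other 3 had differences of 0.11 (Phlda3), 0.05 (Sesn2) and 0.05 (Bbc3). With 3 genes on each side, no test was made.

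The members were also compared from array to array. Each gene's deviation from its own mean over the 6 arrays was taken. The median deviation over the 8 genes was -0.08, -0.06 and -0.03 in Ctrl replicates 1 to 3 and 0.03, 0.08 and -0.01 in knockout replicates 1 to 3. Each knockout median thus lay above each Ctrl median, the closest being -0.01 and -0.03. The mean deviation over the same genes did not separate the genotypes: it was -0.01 both in Ctrl replicate 1 and in knockout replicate 3. Knockout replicate 2 held the highest value of 3 members and the lowest of 0. Ctrl replicate 1 held the lowest value of 4 members but also the highest of 2, Mdm2 and Aen. Its deviations ran from -0.30 (Ccng1) to 0.54 (Aen).

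**Figure D2:**
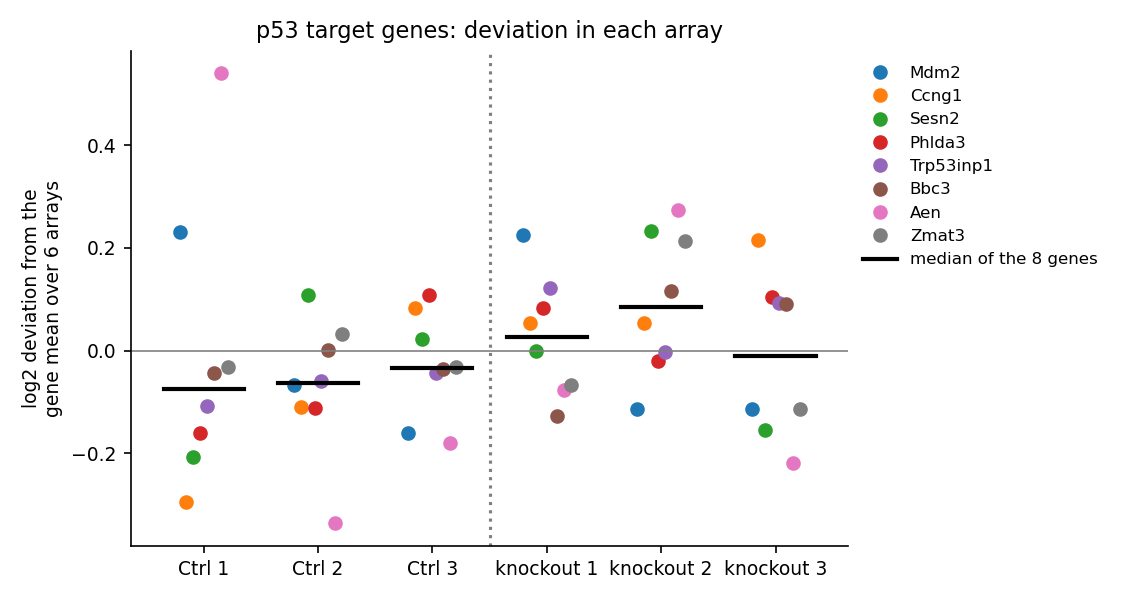
Deviation of each of the 8 p53 target genes from its mean over the 6 arrays (log2), by array, with the median of the 8 genes as a black bar. The medians lie between -0.08 and 0.08, and the single genes spread further than that within every array, most in Ctrl replicate 1.

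The wider list of p53 targets for arrest, repair and feedback also held no called gene. Of 20 measured genes, 0 rose and 0 fell (limma, adjusted over all genes), 8 had positive and 12 negative differences, and the median was -0.10. At an unadjusted p under 0.05, 2 of 20 were lower, Gadd45a and Xpc, where 1.91% of all genes were lower in this way. Without knockout replicate 3 the list's median was 0.01.

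Gadd45a, a stress sensor that promotes growth arrest and repair, had the largest difference of all p53 pathway genes listed. It was at 5.22, 4.77 and 4.95 in knockout arrays and at 5.56, 5.40 and 5.77 in Ctrl arrays. The knockout arrays all lay under the Ctrl arrays, and 4.65% of all genes were lower without overlap. The means were 4.98 ± 0.23 and 5.58 ± 0.19 (SD, n = 3 each), a log2 difference of -0.59 (95% interval -0.97 to -0.22, unadjusted p = 0.0056, adjusted p = 0.999 by limma). That is a level 1.51-fold higher in Ctrl arrays. An exact two-sided permutation test gave p = 0.1, the smallest possible.

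Xpc, which recognises damaged DNA in nucleotide excision repair, was at 4.28, 4.65 and 4.25 in knockout arrays and at 4.95, 4.60 and 4.75 in Ctrl arrays. Knockout replicate 2 lay above Ctrl replicate 2, so the groups overlapped, and the log2 difference was -0.38 (SE 0.16, unadjusted p = 0.0453, adjusted p = 0.999 by limma). With 1 array left out it ran from -0.50 (without knockout replicate 2, unadjusted p = 0.0156 by limma) to -0.28 (without Ctrl replicate 1, unadjusted p = 0.15). The mean of Xpc, 4.58, lay not far above the olfactory receptor level. The microtubule-associated Psrc1 differed by -0.36 (SE 0.23) and the small GTPase Rap2b by 0.28 (SE 0.20). Psrc1 was at -0.11 without Ctrl replicate 3 and at -0.50 without Ctrl replicate 2. Rap2b was at 0.07 without knockout replicate 2 and at 0.43 without knockout replicate 3. Ppm1d, the phosphatase that reverses p53 activation and a described target of microRNA-16, was at 6.52, 6.16 and 5.96 in knockout arrays and at 6.48, 6.32 and 6.31 in Ctrl arrays. Its log2 difference was -0.15 (95% interval -0.53 to 0.22), which was -0.31 without knockout replicate 1 and -0.03 without knockout replicate 3. Knockout replicate 1 was the highest of the 6 arrays and the other knockout arrays the lowest.

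Of 9 further measured p53 targets with a role in death, 0 rose and 0 fell, and the median was 0.06. Differences were positive for 7 and negative for 2, where 47.9% of all genes were positive. Pmaip1, which encodes the BH3-only protein NOXA, was at 4.45, 4.80 and 4.36 in knockout arrays and at 4.45, 4.17 and 4.50 in Ctrl arrays. Its groups overlapped, with a log2 difference of 0.17 (SE 0.17). This was 0.04 without knockout replicate 2, 0.06 without Ctrl replicate 2 and 0.25 without knockout replicate 3. Trp53i11 had the largest difference of this list, 0.34 (SE 0.27), which was 0.01 without knockout replicate 2 and 0.62 without knockout replicate 3. Apaf1, the core of the apoptosome, differed by -0.15 (SE 0.17), or by -0.04 without knockout replicate 2 and -0.32 without knockout replicate 1, and Eda2r, a receptor for ectodysplasin A2, by 0.14 (SE 0.19). Eda2r lay under the olfactory receptor level, and its difference was -0.01 without Ctrl replicate 1. Without knockout replicate 2 the median of the list was -0.03. Bax was not analysed here.

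Upstream of p53, the kinases and binding partners showed no called difference either. Of 20 measured regulators, 0 rose and 0 fell, and the median was 0.06, or -0.02 without knockout replicate 1. Differences were positive for 14 and negative for 6, where 47.9% of all genes were positive. Atr, the kinase that answers replication stress, was at 5.96, 6.27 and 6.28 in knockout arrays and at 5.83, 5.93 and 5.89 in Ctrl arrays, without overlap. Its log2 difference was 0.29 (95% interval -0.04 to 0.61, limma adjusted p = 0.999). Atm, the kinase that answers double-strand breaks, differed by 0.05 (SE 0.19), and by -0.12 without knockout replicate 1 and -0.04 without Ctrl replicate 2. The kinase Chek2 differed by -0.13 (SE 0.17), or by -0.01 without Ctrl replicate 3 and -0.27 without Ctrl replicate 2, and lay under the olfactory receptor level.

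The inhibitors and cofactors of p53 had small differences of either sign. Mdm4, the partner of MDM2 that masks the activation domain of p53, differed by 0.10 (95% interval -0.24 to 0.43), or by 0.01 without Ctrl replicate 3 and 0.18 without Ctrl replicate 2. Cdkn2a, which encodes the MDM2 inhibitor ARF beside the cell cycle inhibitor INK4A, differed by -0.10 (SE 0.13) and lay under the olfactory receptor level. The p53-binding ASPP family members Trp53bp2 and Ppp1r13l differed by -0.22 (SE 0.14) and -0.16 (SE 0.17), and the repair factor Trp53bp1 by 0.13 (SE 0.14). The relatives of p53, Trp63 and Trp73, differed by -0.11 (SE 0.14) and 0.01 (SE 0.14), and Trp63 lay under the olfactory receptor level. The difference of Trp73 was -0.06 without knockout replicate 2 and also without Ctrl replicate 2.

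**Figure D3:**
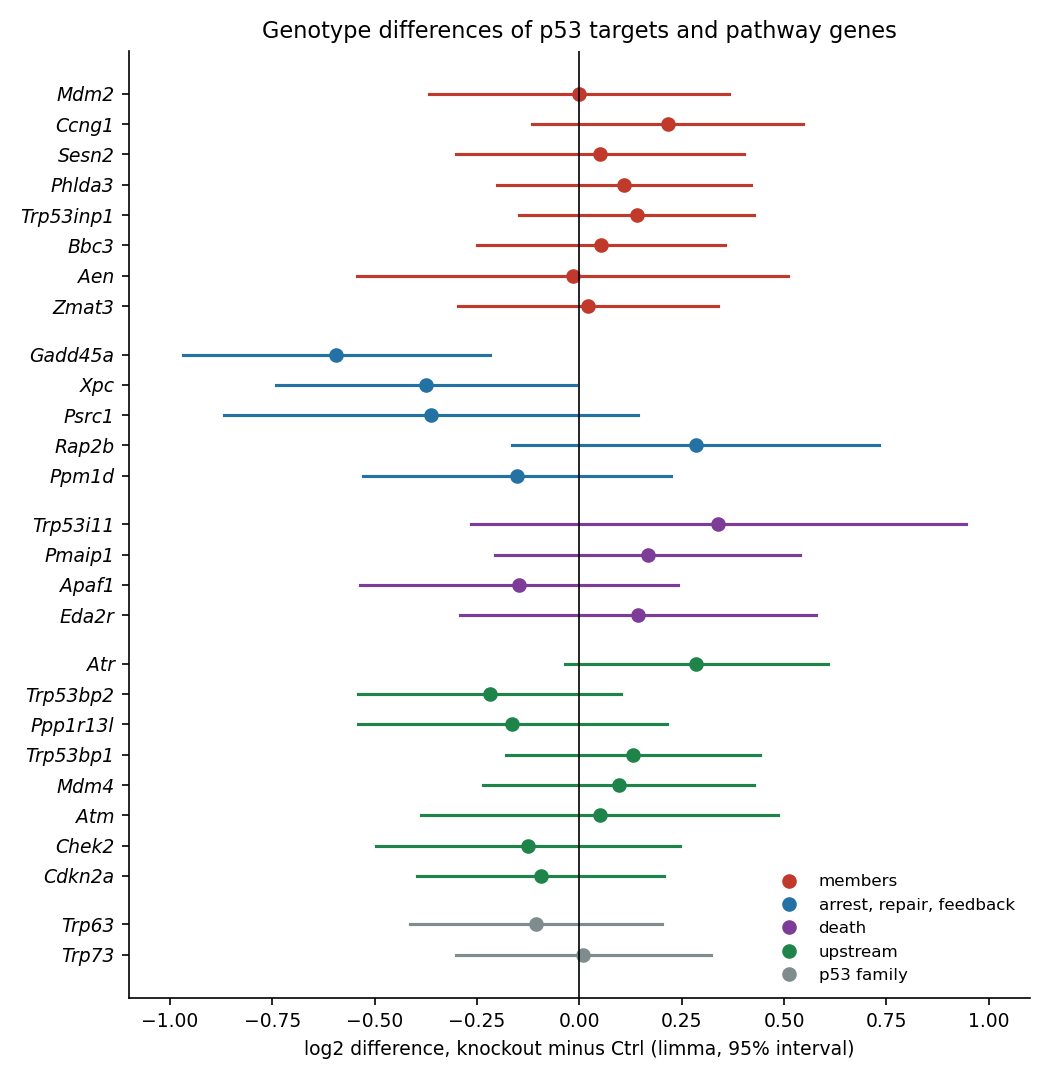
Log2 difference (knockout minus Ctrl) with its 95% interval from limma for the 8 members and the named genes of 4 further p53 pathway lists, 3 arrays per genotype. All intervals cross 0 except those of Gadd45a and Xpc, and no gene passed the adjusted threshold.

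Over the 4 pathway lists together, 51 genes were measured, of which 30 were above 0 and 21 below, and the median difference was 0.04. At an unadjusted p under 0.05 there were 2, where 3.47% of all genes were found. Without overlap there were 1 higher (Atr) and 1 lower (Gadd45a), where 3.68% and 4.65% of all genes were. These counts lay near the background of the whole array.

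**Figure D4:**
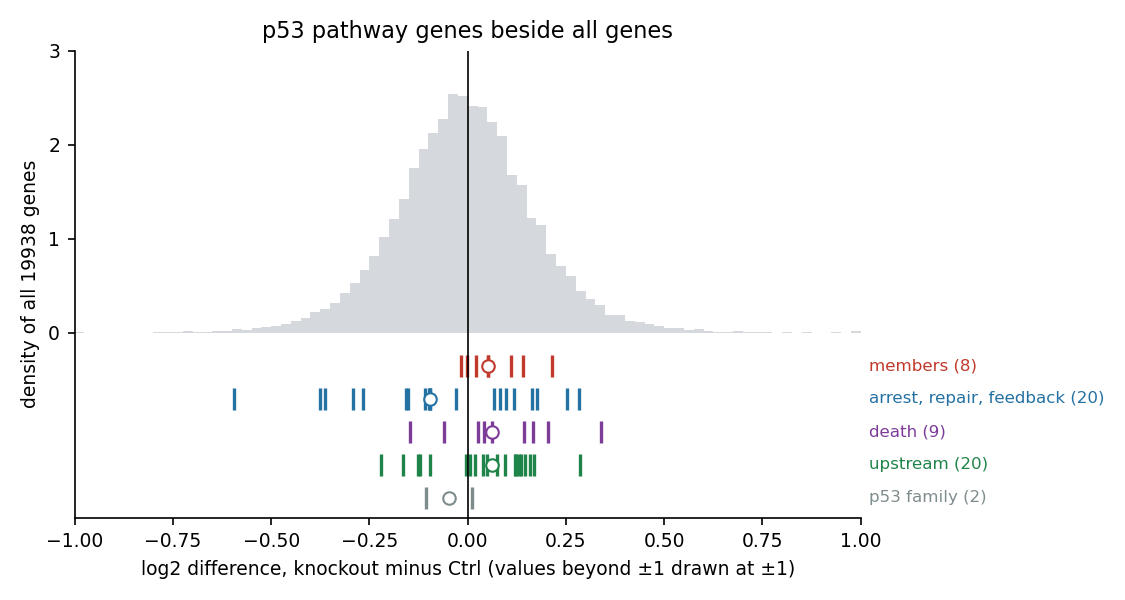
Log2 differences (knockout minus Ctrl) of the p53 pathway genes as ticks, 1 row per list with the number of genes and an open circle at the median, under the distribution of all 19938 genes in grey (density). The members lie between -0.02 and 0.22 and Gadd45a at -0.59 is the outermost tick.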

How the data were processed

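RNA of 6 samples was hybridised to Affymetrix mouse gene arrays, 1 per sample. The authors deposited log2 expression values for 35556 probe sets; RMA and Partek 6.6 are named, without their roles, in the submitters' processing notes. No genome build is stated there. Precision is limited by the number of arrays. Names came from GEO's platform annotation (21789 with 1 symbol, 1621 with several, 12146 not listed), and each gene was represented by its brightest probe set. Looking up Entrez identifiers in RefSeq's GRCm38.p6 table changed 0 symbols.

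Genotypes were compared with limma 3.58.1 (R 4.3.3), two-sided, by lmFit and eBayes with genotype as the only term, and Benjamini-Hochberg adjustment over 19938 genes and a threshold of 0.05. The fit was tested on simulated data. The members, the pathway lists and the markers were chosen with earlier results of these data known. Named pathway genes were the 4 with the smallest p in each list plus 6 fixed by name (Pmaip1, Mdm4, Ppm1d, Atm, Chek2 and Cdkn2a), and Bax was not analysed here, while 1 of the 10 members is not reported here. The remaining genes were described by counts and medians without a set test. The alternatives tried are named in the closing section. The same replicate numbers appear in both genotypes. Deviations of same-numbered arrays correlated with r = 0.048, 0.148 and 0.141 across genes, which are not independent replicates. Those of different-numbered arrays were all lower, from -0.186 to 0.045. Deviations were taken from each genotype's own mean and cancel out over its arrays, so higher correlations for same numbers force the others down. The contrast therefore cannot show whether the numbers pair arrays. The labels do not say that the numbers pair arrays, so no block was used in the main fit, and a block was among the alternatives.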

Additional observations from a re-analysis of the deposited data

How the results depend on the processing

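Under each of 16 alternatives, 0 of the members and other pathway genes it tested were called. All 8 members and 51 other genes were tested in each except with brighter genes only, which tested 7 members and 35 others and so left out Phlda3 and, among the named genes, Psrc1, Eda2r, Chek2, Cdkn2a, Ppp1r13l, Trp63 and Trp73. These were arrays centred on their medians, a second quantile normalization, brighter genes only, a replicate block, a prior with trend and robust estimation, weights per array, leaving out each array, the dimmest probe set of each gene, every probe set with 1 symbol or of the table, and a covariate for sex-linked transcripts. With the replicate block the median of the members stayed at 0.05 and 3 genes were called over all genes, with an SE of 0.14 for Mdm2. The count over all genes was 0 when every probe set of the table was tested (1214 at an unadjusted p under 0.05 by limma), 2 with the sex-linked covariate, and 2 to 3 with 1 array left out. The median of the members ran from 0.03 to 0.09 with 1 array left out.

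Differences near 0 changed sign, without a call. Mdm2 was at 0.0074 with centred arrays and Aen at 0.0281 with array weights. With 1 array left out, Mdm2 ran from -0.11 to 0.11, Aen from -0.19 to 0.25, Sesn2 from -0.0525 to 0.14, Zmat3 from -0.0801 to 0.0834, Atm from -0.12 to 0.23, Eda2r from -0.0134 to 0.34 and Trp73 from -0.0587 to 0.049. The arrays that turned a member were knockout replicates 2 and 3 and Ctrl replicate 1 for Mdm2, knockout replicates 1 and 3 and Ctrl replicate 1 for Aen, knockout replicate 2 and Ctrl replicate 1 for Sesn2, and knockout replicate 2 for Zmat3. Gadd45a stayed between -0.71 and -0.49 in all 16, with a lowest adjusted p of 0.991 by limma. Dim probe sets limit what can be said of Phlda3 and the shared Cdkn1a probe set. They also limit Sesn2, Zmat3, Aen and Bbc3, whose means of 4.45, 4.49, 4.64 and 4.81 lay not far above the olfactory receptor level of 4.13.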
